A study of Danio rerio with 12 samples.

Results

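In zebrafish larvae without a spinal lesion, sorted neutrophils were compared between AMD3100, a drug that blocks the chemokine receptor Cxcr4, and DMSO. The comparison used 6 of the 12 libraries of the study, 3 of uninjured larvae in AMD3100 and 3 of uninjured larvae in DMSO, and every entry of the count table other than the spike-ins, 31263 entries in all. The larvae carried mpx:GFP, a transgene in which the promoter of the myeloperoxidase gene drives GFP in neutrophils, and it was shared by every group. AMD3100 was given at 25 uM with 0.1% DMSO from 4 to 8 hours after the time at which other larvae were lesioned, at 3 days post-fertilization. For the DMSO larvae, the sources used here do not state the DMSO concentration. GFP-positive cells were sorted from trunks, at the level that was lesioned in the injured larvae, and 2500 to 4800 cells gave the RNA of a library. The other 6 libraries, 3 of injured larvae in AMD3100 and 3 of injured larvae in DMSO, served to estimate the spread and to ask whether the drug effect differed with injury.

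Cxcr4 is a G protein-coupled receptor for the chemokine Cxcl12. In neutrophils it is known for holding the cells in the haematopoietic tissue and at sites of inflammation, and its inhibition releases them. Its signals pass through Gi proteins, PI3 kinase and Rac to the actin cytoskeleton, so an antagonist acts on the protein and need not change the amount of its transcript. The question here was what the inhibitor alone changes in the RNA of neutrophils that no lesion has called to a wound.

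Libraries held 2936718, 11511635 and 4387865 counts in AMD3100, and 1942528, 1697395 and 6446017 counts in DMSO. Of the EGFP transgene, AMD3100 libraries held 1748 ± 180 CPM and DMSO libraries 1738 ± 80.0, where CPM divides a count by the library's total and multiplies by 1e6 (SD, n = 3 each, exact two-sided permutation p = 0.9). These totals include mitochondrial RNA, whose share differed between the groups, as given below. Scaled by TMM factors, EGFP held 1842 ± 282 CPM in AMD3100 and 2013 ± 211 in DMSO (log2 fold change -0.13, 95% interval -0.90 to 0.64). The neutrophil genes mpx and lyz were among the well-covered transcripts of all 6 libraries. Spearman correlations between libraries of a group ran between 0.872 and 0.943 in uninjured larvae, and no pair agreed within counting error. In principal component analysis of the 6 libraries, the first component held 31.2% of the variance. AMD3100 replicates 1, 2 and 3 scored 48.4, 10.1 and 19.3 on it, and DMSO replicates 1, 2 and 3 scored -17.9, -64.6 and 4.69. The groups did not overlap on this component, which was not tested. AMD3100 replicate 1 and DMSO replicate 2 lay furthest apart, and AMD3100 replicate 2 and DMSO replicate 3 were close. Among the injured libraries, AMD3100 replicate 1 was the shallowest of the study at 655451 counts and held 397 CPM of EGFP, and the calls are given below with and without it.

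With the filter on low counts used here, 1 gene was called as differing with AMD3100 after adjustment for the number of tests, and this number depended on the filter. Of 8453 tested entries, 1 was higher and 0 were lower at an adjusted p under 0.05, which is 0.0118% (edgeR quasi-likelihood test with Benjamini-Hochberg adjustment over all tested entries). The gene was col9a1b, a chain of the cartilage collagen type IX, and no neutrophil gene was called. The next smallest adjusted p was 0.288. At an unadjusted p under 0.05 stood 433 entries (5.12%), 196 higher (2.32%) and 237 lower (2.8%), of which 63 carry clone-based names or join overlapping genes. The 3 libraries of one group lay wholly above those of the other in 584 entries that were higher with AMD3100 (6.91%) and 509 that were lower (6.02%). The median log2 fold change of all tested entries was 0.03, and 52.9% were positive. The count was 145 without a filter on low counts (57 higher and 88 lower, 132 of them among the entries tested here), 19 with DESeq2 (10 higher and 9 lower), 0 with limma-voom and 0 in a fit to the 6 libraries alone. Without injured AMD3100 replicate 1 it was 2, col9a1b and the cartilage collagen gene col2a1a.

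Distances between libraries were compared without a test. Over entries with at least 20 CPM, an AMD3100 library differed from a DMSO library by a median absolute log2 difference of 0.243 to 0.416 (median of 9 pairs 0.330). Within AMD3100 the 3 pairs had a median of 0.335, and within DMSO the 3 pairs had 0.328. These medians differed by less than the range over pairs.

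**Figure D1:**
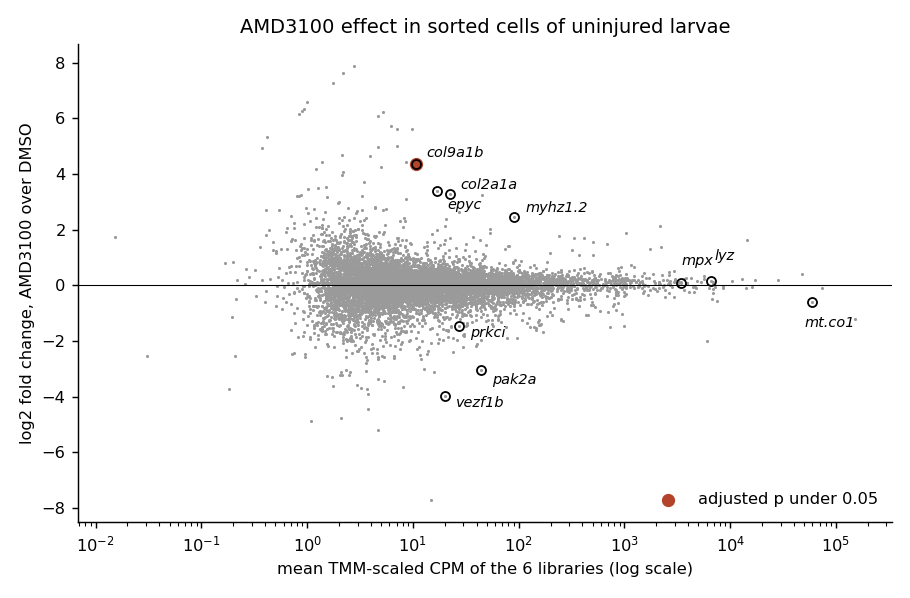
Log2 fold change of AMD3100 over DMSO in uninjured larvae (vertical axis) against the mean TMM-scaled CPM of the 6 libraries (horizontal axis, log scale). Each point is 1 of 8453 tested entries, the filled point is col9a1b with an adjusted p under 0.05, and open circles mark genes named in the text; the cloud narrows with expression and is centred near 0, with a median of 0.03.

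How large a change could have gone unseen depends on coverage. The 95% interval of the fold change lay wholly within 2-fold either way in 2336 of 8453 entries (27.6%). Among the 128 entries with at least 1000 CPM it did so in 73.4%, and the median standard error (SE) on the log2 scale was 0.303. Between 20 and 100 CPM the share was 56.3% of 2121 entries, and below 5 CPM it was 0.227% of 2644, with a median SE of 0.77. For lowly expressed genes, then, the absence of a call says little about changes of that size.

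The called gene, col9a1b (ENSDARG00000031483), held 19.2, 11.8 and 30.3 CPM, scaled by TMM factors as all gene values below, in AMD3100 libraries. In DMSO libraries it held 1.09, 0 and 1.27. All 3 AMD3100 libraries lay above all 3 DMSO libraries, from 306 counts in the AMD3100 libraries and 9 in the DMSO libraries together. The log2 fold change was 4.36 (SE 0.623, 95% interval 3.03 to 5.69, adjusted p = 0.0371). The call was lost in 12 of 23 alternative settings. Among these were the omission of AMD3100 replicate 1 (adjusted p = 0.128) or replicate 3 (0.141) and of DMSO replicate 1 (0.173), 2 (0.170) or 3 (0.199). Its log2 fold change stayed between 3.96 and 4.97 in all 23 settings.

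Other collagens of cartilage and of the notochord sheath ran alongside it below the threshold. The main fibrillar collagen of cartilage, col2a1a, held 35.4, 27.8 and 57.8 CPM in AMD3100 libraries and 4.90, 5.13 and 3.09 in DMSO libraries, again with no overlap (log2 fold change 3.28, SE 0.658, adjusted p = 0.369). The type XI collagen gene col11a2 held 12.8, 5.35 and 9.51 CPM in AMD3100 libraries and 0, 0 and 0.182 in DMSO libraries. The col11a2 value rests on 1 count in the DMSO libraries together, against 134 in the AMD3100 libraries, a ratio of 71.8 per count sequenced with an exact counting interval of 12.7 to 2855 (adjusted p = 0.369). For col9a2, a partner chain of type IX collagen, the libraries held 7.08, 3.04 and 16.8 CPM in AMD3100 and 1.09, 0 and 0 in DMSO, a ratio of 32.4 from 121 and 2 counts (exact counting interval 8.78 to 271, adjusted p = 0.463).

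Genes for other matrix proteins of these tissues were also higher in AMD3100 libraries without passing the threshold. The cartilage proteoglycan gene epyc held 16.9, 18.5 and 58.5 CPM in AMD3100 libraries and 0, 0 and 6.36 in DMSO libraries (log2 fold change 3.38, SE 0.957, adjusted p = 0.721). Chosen after their values were seen, the cartilage matrix gene matn3a held 7.75, 1.94 and 31.5 CPM in AMD3100 and 1.09, 0 and 0 in DMSO, and the notochord gene cmn held 8.43, 4.24 and 16 in AMD3100 and 1.09, 0 and 0.363 in DMSO (adjusted p = 0.369 for each). The matn3a values rest on 170 and 2 counts, a ratio of 45.5 with an exact counting interval of 12.4 to 379. AMD3100 replicate 3 was the highest library for col9a1b, col2a1a, col9a2, epyc, matn3a and cmn. With DESeq2, col9a1b, col2a1a, col11a2, col9a2, matn3a and cmn were 6 of the 10 entries called higher.

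Other genes of cartilage and notochord were near 0 or did not share this pattern. The notochord transcription factor gene tbxta had 2, 4 and 14 counts in AMD3100 libraries and 0 in each DMSO library. The chondrocyte factor gene sox9a had 0 counts in all 6 libraries, and the cartilage genes acana and col9a1a had 2 counts in AMD3100 libraries and 0 and 1 in DMSO libraries. The cartilage matrix gene matn1 held 3.37, 4.43 and 1.25 CPM in AMD3100 and 0.544, 2.2 and 5.63 in DMSO, with overlap and its highest value in DMSO replicate 3 (log2 fold change -0.0094, SE 0.972). The collagen gene col5a3a was lower without overlap, at 0.337, 2.49 and 1.00 CPM in AMD3100 and 9.25, 8.79 and 3.09 in DMSO (-2.26, SE 1.08, adjusted p = 0.968). Both were named after their values were seen.

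**Figure D2:**
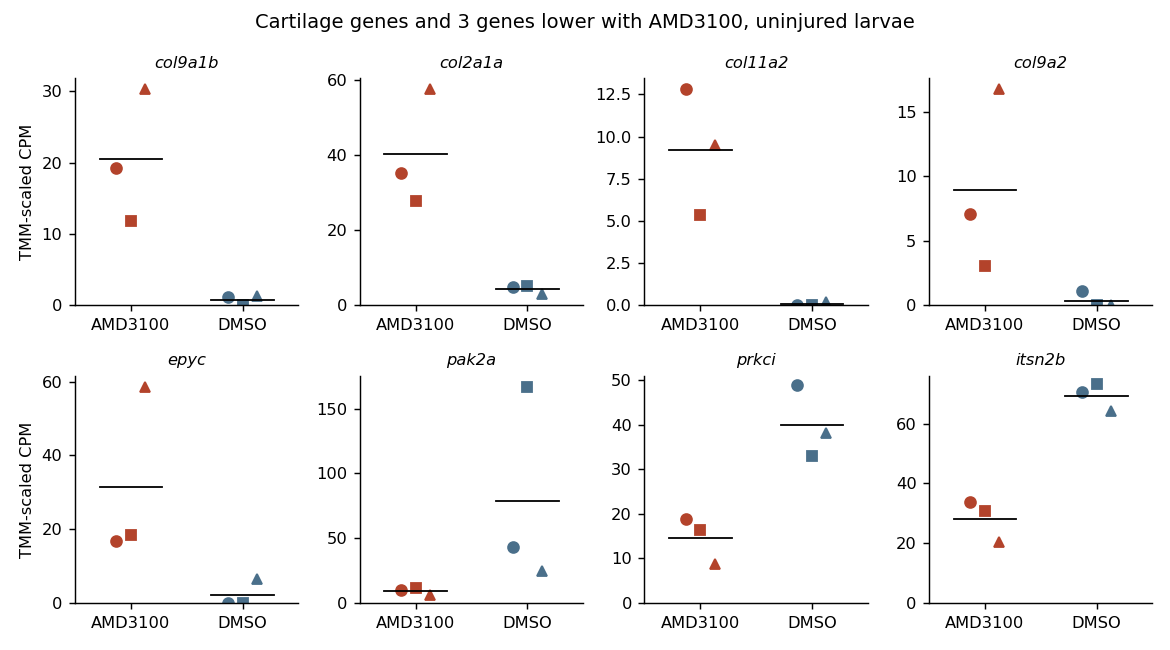
TMM-scaled CPM per library (vertical axes, linear, from 0) in AMD3100 and DMSO libraries of uninjured larvae for 5 cartilage genes and 3 genes that were lower with AMD3100 below the adjusted threshold; circles, squares and triangles are replicates 1, 2 and 3 and lines are group means. In each of the 8 genes the 3 AMD3100 libraries lie wholly above or wholly below the 3 DMSO libraries.

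Read as a list, 48 genes of mesenchyme, cartilage and notochord were in the table and 18 were tested. Of these 1 was called, and 6 had an unadjusted p under 0.05 and were higher (against 2.32% of all tested entries). Of the 18, 13 were positive, against 52.9% of all tested entries. The median log2 fold change was 0.65, against 0.03 for all tested entries. Members near 0 in uninjured DMSO, such as col11a2 and col9a2, passed the filter through other libraries, so this tally and median are no test of the list. The summed share of counts of the 48 genes was 0.0225%, 0.0156% and 0.0343% in AMD3100 libraries and 0.0139%, 0.0115% and 0.00932% in DMSO libraries. The groups did not overlap, but with 3 against 3 libraries the exact two-sided permutation p of 0.1 is the smallest possible. In a bulk sort, a few more cells of another type and more RNA per cell cannot be told apart.

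Skeletal muscle transcripts were counted beside them. Of 62 muscle genes 47 were tested, 42 were positive, and the median log2 fold change was 1.28, against -0.04 in injured larvae. Of all tested entries, 52.9% were positive. None of the 47 was called, and 6 were higher and 1 lower at an unadjusted p under 0.05, against 2.32% and 2.8% of all tested entries. Without a filter on low counts, 57 of all 20264 entries were called higher and 88 lower. Of the muscle list 17 were called higher, among them mylz3, myhz1.2, tpma, ckma and mylpfa, and 3 lower. Of the cartilage list 5 were called higher and 0 lower. The muscle list took 1.54%, 4.01% and 4.83% of counts in AMD3100 libraries and 0.893%, 2.07% and 0.371% in DMSO libraries. DMSO replicate 2 exceeded AMD3100 replicate 1, so the groups overlapped (exact two-sided permutation p = 0.2).

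The fast myosin heavy chain gene myhz1.2 held 110, 184 and 165 CPM in AMD3100 libraries and 66.4, 18.3 and 2.36 in DMSO libraries, with no overlap (log2 fold change 2.44, SE 0.979, adjusted p = 0.959). The sarcomeric Z-disc gene myoz1b held 15.8, 28.9 and 55.0 CPM in AMD3100 and 3.81, 17.6 and 0.909 in DMSO, where AMD3100 replicate 1 lay below DMSO replicate 2. The tropomyosin gene tpm2 went the other way, with 3.03, 7.28 and 20.8 CPM in AMD3100 and 20.7, 10.3 and 80.7 in DMSO (log2 fold change -1.89, SE 0.814, adjusted p = 0.959). Without a filter, tpm2, myl10 and myl13 were called lower, and their DMSO counts lay mostly in 1 library. DMSO replicate 3 held 444, 2744 and 944 counts of them, and the other DMSO libraries at most 82 of any. Myosin genes have near-identical copies between which reads may be divided, so single values are uncertain. The part of muscle or cartilage cells in these results was not tested.

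Markers of other cells that a trunk sort could hold gave no call with the filter on low counts. Without a filter 57 of 20264 entries were called higher and 88 lower. Among them the erythroid genes hbbe1.2 and hbbe1.3 were lower and the skin genes cldni and agr2 higher. No gene of the macrophage or lymphoid list was called without a filter. The macrophage list had 18 tested genes, none called, a median of -0.02 and a share of 0.0101 to 0.0151% of counts in AMD3100 and 0.0086 to 0.0142% in DMSO. The macrophage gene mpeg1.1 stayed between 5.13 and 14.1 CPM in all 6 libraries, while other members moved either way. Without overlap 2 were higher and 0 lower, against 6.91% and 6.02% of all tested entries. Of these c1qb held 7.75, 4.89 and 8.26 CPM in AMD3100 and 2.72, 3.66 and 2.91 in DMSO (log2 fold change 1.17, SE 0.662, adjusted p = 0.991). With overlapping groups, marco had a log2 fold change of 1.34, csf1rb -1.34 and fabp11a -1.91. The erythroid list, with 16 tested genes, had a median of -0.70 and overlapping shares. Skin and epithelium had 19 tested genes, a median of 0.12 and overlapping shares, with 2 genes higher and 0 lower at an unadjusted p under 0.05, against 2.32% and 2.8% of all tested entries. These were cldni, described below, and agr2, a secretory cell gene, at 10.8, 5.44 and 25.5 CPM in AMD3100 and 1.63, 5.13 and 2.18 in DMSO (log2 fold change 2.32, SE 0.812, adjusted p = 0.959). The lymphoid list, with 3 tested genes, took 0.0088 to 0.00998% of non-mitochondrial counts in AMD3100 and 0.0101 to 0.0108% in DMSO, lower without overlap, while its shares of all counts overlapped. Most of its counts were those of 1 gene, the chemokine receptor gene ccr9a. It held 62.7, 65.9 and 76.8 CPM in AMD3100 and 72.4, 74.0 and 75.4 in DMSO, with overlap (log2 fold change -0.11, SE 0.360).

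Among neutrophil genes the intervals bound the change for the best covered. The peroxidase gene mpx (ENSDARG00000019521), whose promoter marks the sorted cells, held 4410, 3237 and 2952 CPM in AMD3100 libraries and 2508, 3573 and 3985 in DMSO libraries. The groups overlapped, and the log2 fold change of 0.07 had a 95% interval of -0.58 to 0.73. The lysozyme gene lyz held 8596, 7065 and 4937 CPM in AMD3100 and 4405, 6915 and 7342 in DMSO (log2 fold change 0.14, interval -0.90 to 1.19). The gelatinase gene mmp9 held 1258, 541 and 997 CPM in AMD3100 and 1058, 790 and 783 in DMSO (0.09, interval -0.63 to 0.80). Changes of more than 2-fold in mpx and mmp9 fall outside these intervals, while for lyz the interval reaches slightly beyond 2-fold upwards.

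Of 40 neutrophil identity and granule genes, 35 were tested and none was called; 25 were positive and the median was 0.10. The leukotriene synthesis gene lta4h held 1558, 1435 and 1548 CPM in AMD3100 libraries and 915, 753 and 1178 in DMSO libraries. The AMD3100 libraries were all higher and close together (log2 fold change 0.67, SE 0.244, adjusted p = 0.959). The lectin-like receptor gene illr4 held 93.4, 68.5 and 114 CPM in AMD3100 and 64.2, 59.3 and 42.0 in DMSO (0.74, SE 0.324, adjusted p = 0.959). On the lower side were spi1b, which encodes the myeloid transcription factor Pu.1, with 284, 292 and 321 CPM in AMD3100 and 355, 492 and 455 in DMSO (-0.54, SE 0.248, adjusted p = 0.968), and the integrin gene itgam, with 4.04, 6.64 and 0.751 in AMD3100 and 13.6, 18.3 and 8.00 in DMSO (-1.69, SE 0.732, adjusted p = 0.959). None of these 4 differences passed the threshold, although the libraries of the groups did not overlap in any of them, as was so for 12.9% of all tested entries.

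The oxidase that makes the respiratory burst showed no call among its 8 tested genes, with a median of 0.15. The catalytic subunit gene cybb averaged 296 ± 39.0 CPM in AMD3100 and 265 ± 22.5 in DMSO (SD, n = 3 each), and its log2 fold change of 0.16 had an interval of -0.36 to 0.68. The GTPase gene rac2, needed for the burst and for migration, averaged 462 ± 76.4 CPM in AMD3100 and 418 ± 86.2 in DMSO. The cytokine gene il1b averaged 194 ± 31.5 CPM in AMD3100 and 179 ± 38.6 in DMSO, with an interval of -0.42 to 0.65. The growth factor receptor gene csf3r was too low to be informative, at 4.2 ± 2.9 CPM in AMD3100 and 4.25 ± 1.44 in DMSO, with an interval of -1.51 to 1.66.

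**Figure D3:**
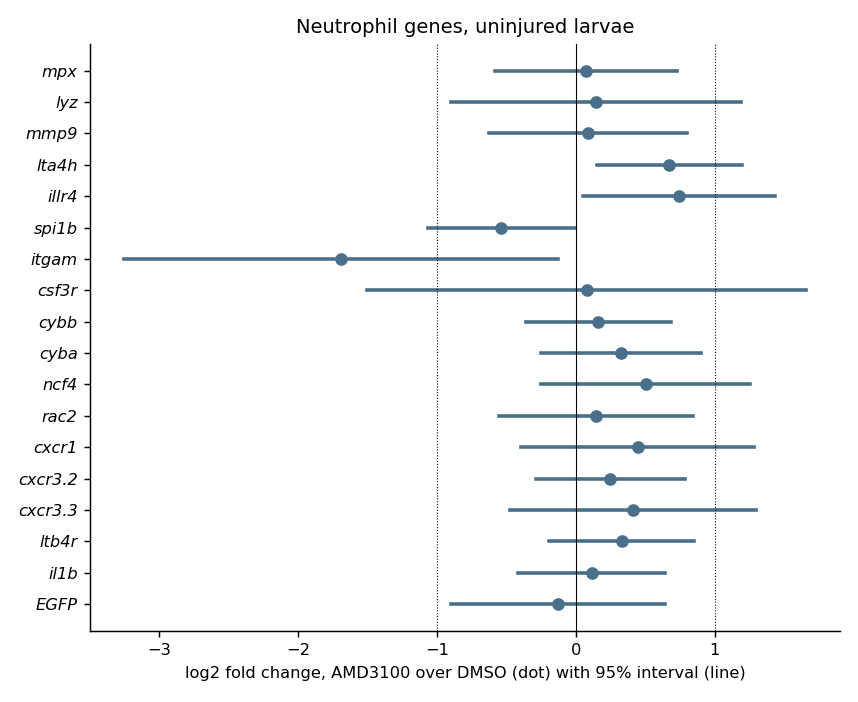
Log2 fold change of AMD3100 over DMSO (dots) with its 95% interval (lines) for 17 neutrophil genes and EGFP in uninjured larvae; dotted lines mark 2-fold. The intervals of mpx, mmp9, cybb, cyba, rac2, cxcr3.2, ltb4r, il1b and EGFP lie inside 2-fold. Those of lyz, lta4h, illr4, spi1b, itgam, csf3r, ncf4, cxcr1 and cxcr3.3 reach beyond it.

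The receptor that the drug blocks was hardly detected as RNA. The paralog cxcr4a had 1, 8 and 2 counts in AMD3100 libraries and 1, 2 and 10 in DMSO libraries, too few to be tested. The paralog cxcr4b was counted together with the overlapping entry CR522881.1, and this joint entry held 3.37, 0.83 and 3.5 CPM in AMD3100 and 1.63, 2.93 and 4.00 in DMSO. The groups overlapped, with a log2 fold change of -0.26 and an interval of -2.70 to 2.18. The ligand genes cxcl12a and cxcl12b had 4 and 5 counts in the AMD3100 libraries together and 0 in the DMSO libraries, and the scavenging receptor gene ackr3a had 6 and 0. These counts are near the limit of detection and no fold is given.

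Of 24 genes of the Cxcr4-Cxcl12 axis and of chemokine receptors 9 were tested, none was called, and the median was 0.24. The neutrophil chemokine receptor gene cxcr1 held 22.6, 73.3 and 51.3 CPM in AMD3100 and 53.9, 34.4 and 22.0 in DMSO (log2 fold change 0.45, interval -0.39 to 1.28). The receptor gene cxcr3.2 averaged 93.3 ± 9.42 CPM in AMD3100 and 78.3 ± 11.6 in DMSO (SD, n = 3 each), and ltb4r, which encodes a leukotriene B4 receptor, averaged 242 ± 15.9 in AMD3100 and 192 ± 21.4 in DMSO. The receptor gene cxcr2, a partner of cxcr1, had 0 counts in every AMD3100 library and 0, 0 and 7 in DMSO libraries.

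The list of genes below the receptor had a median near that of all entries. Of 49 genes of G proteins and PI3 kinase signalling 37 were tested, none passed even an unadjusted p under 0.05, and the median was -0.02. The regulator gene rgs18, a brake on G protein signals, held 86.3, 59.6 and 72.3 CPM in AMD3100 and 51.1, 37.4 and 58.7 in DMSO (0.55, SE 0.268, adjusted p = 0.976). The phosphatase gene ptena, which opposes PI3 kinase, held 113, 122 and 131 CPM in AMD3100 and 164, 229 and 171 in DMSO (-0.62, SE 0.330, adjusted p = 0.991). The 40 tested genes of actin and motility had a median of 0.08, with 0 higher and 1 lower at an unadjusted p under 0.05, against 2.32% and 2.8% of all tested entries.

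The genes with the smallest p on the lower side and at least 20 CPM in DMSO were pak2a, prkci, itsn2b, myo1f, phactr2, vezf1b, plekho2 and ccdc187, and none passed the threshold. Without a filter on low counts each of these genes was called lower, where 88 of 20264 entries were called lower and 57 higher. They were picked by their p in the same libraries, so their calls in other fits are no separate evidence. The Rac and Cdc42 effector kinase gene pak2a held 10.1, 11.4 and 6.25 CPM in AMD3100 libraries and 43.5, 167 and 24.5 in DMSO libraries (log2 fold change -3.04, SE 0.653, adjusted p = 0.369). The polarity kinase gene prkci held 18.9, 16.4 and 8.76 CPM in AMD3100 and 49.0, 33.0 and 38.2 in DMSO (-1.45, SE 0.323, adjusted p = 0.369). The endocytic scaffold gene itsn2b held 33.7, 30.7 and 20.3 CPM in AMD3100 and 70.7, 73.2 and 64.2 in DMSO (-1.29, SE 0.330, adjusted p = 0.523). In all 3 the lowest library was AMD3100 replicate 3 and the groups were apart.

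The unconventional myosin gene myo1f, which is used in neutrophil migration in mice, averaged 10.5 ± 5.32 CPM in AMD3100 and 32.2 ± 2.83 in DMSO (SD, n = 3 each). The actin and phosphatase regulator gene phactr2 averaged 7.23 ± 4.82 in AMD3100 and 40.8 ± 12.5 in DMSO, and plekho2 averaged 150 ± 38.0 in AMD3100 and 352 ± 92.0 in DMSO. The zinc finger gene vezf1b had a log2 fold change of -3.97, and ccdc187 had -2.63. Adjusted p-values of these 5 ran between 0.552 and 0.651. Chosen after its values were seen, the actin-oxidizing enzyme gene mical1 held 3.71, 4.43 and 3.00 CPM in AMD3100 and 15.2, 19.0 and 11 in DMSO (-1.97, SE 0.421, adjusted p = 0.369). With DESeq2 pak2a, prkci, itsn2b, phactr2 and mical1 were among the 9 entries called lower.

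On the higher side, col9a1b, col2a1a and epyc were followed by cldni, a claudin of the skin, at 77.9, 28.8 and 87.6 CPM in AMD3100 and 35.4, 15.4 and 12.7 in DMSO (log2 fold change 1.63, SE 0.465, adjusted p = 0.721). The groups overlapped, since AMD3100 replicate 2 lay below DMSO replicate 1. The RNA-binding protein gene hnrnpa0l held 1653, 1284 and 1364 CPM in AMD3100 and 985, 806 and 791 in DMSO (0.74, SE 0.227, adjusted p = 0.803). The ribosomal protein gene rps27.2, which has a close copy, averaged 272 ± 139 CPM in AMD3100 and 121 ± 36.9 in DMSO, and LEPROTL1, a membrane trafficking gene, averaged 135 ± 17.2 in AMD3100 and 73.6 ± 10.2 in DMSO (SD, n = 3 each). The ribosome assembly gene tex10 stood high in 1 library only, at 58.8 CPM in AMD3100 replicate 3 against 3.66 to 16.8 in the other 5.

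The make-up of the libraries differed in mitochondrial RNA. Mitochondrially encoded entries took 17.9%, 21.4% and 19.1% of counts in AMD3100 libraries and 29.9%, 32.1% and 31.5% in DMSO libraries. With each count taken as independent, the counting error of a single library was at most 0.0703 percentage points either way (exact Clopper-Pearson, 95%). The groups did not overlap. Their means were 19.5 ± 1.78% in AMD3100 and 31.2 ± 1.12% in DMSO (SD, n = 3 each), a difference of -11.7 percentage points with an exact two-sided permutation p of 0.1, the smallest that 3 against 3 allows. In injured larvae the share was 19.3 ± 7.43% in AMD3100 and 22.8 ± 3.92% in DMSO (exact two-sided permutation p = 0.6).

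Most of that difference lay in ribosomal RNA. Mitochondrial ribosomal RNA, which forms the mitochondrial ribosome and carries only short A tails, took 6.18%, 11.2% and 9.70% of counts in AMD3100 and 19.8%, 21.5% and 16.3% in DMSO. With it left out of both sums, mitochondrial entries took 12.5%, 11.5% and 10.5% of the remaining counts in AMD3100 and 12.6%, 13.5% and 18.1% in DMSO. The difference was then -3.24 percentage points, and AMD3100 replicate 1 and DMSO replicate 1 were nearly equal. Chosen after their values were seen, the ribosomal entry NC_002333.4 alone took 6.04%, 10.8% and 9.48% of counts in AMD3100 and 18.8%, 20.3% and 16% in DMSO (log2 fold change -1.20, SE 0.710, adjusted p = 0.991), and NC_002333.17 had a log2 fold change of -1.98 (SE 0.586, adjusted p = 0.749). In the injured larvae the ribosomal share ran between 0.768% and 18% in AMD3100, a wide spread among replicates.

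**Figure D4:**
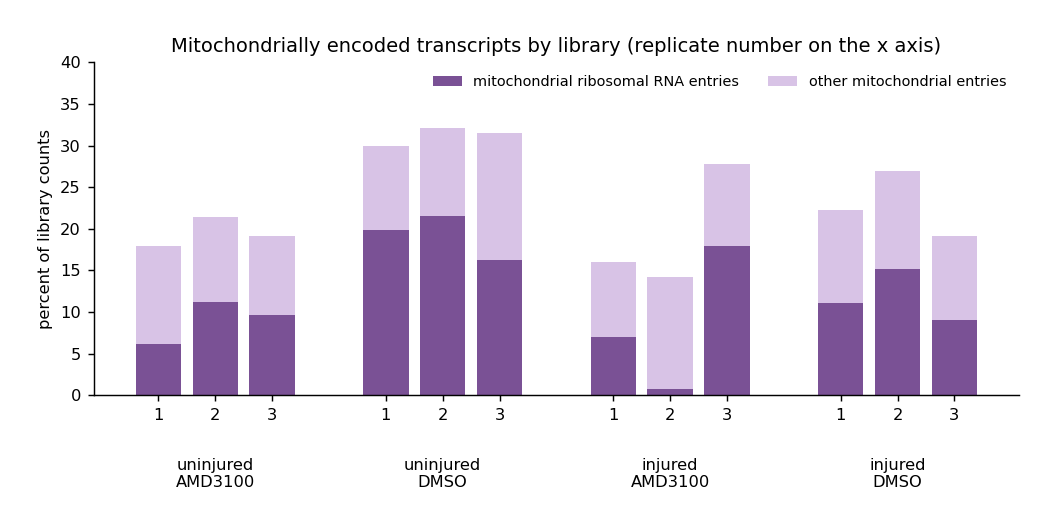
Percent of library counts (vertical axis) taken by mitochondrial ribosomal RNA entries (dark) and other mitochondrial entries (light) in each library, by group and replicate. The 3 uninjured AMD3100 libraries reach 17.9 to 21.4% and the 3 uninjured DMSO libraries 29.9 to 32.1%, while the injured groups overlap.

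The messenger RNAs of the mitochondrial genome, which encode subunits of the respiratory chain, took 9.79 ± 1.04% of counts in AMD3100 and 11 ± 2.4% in DMSO (SD, n = 3 each, exact two-sided permutation p = 0.6). Of 13 tested 11 were negative, with a median of -0.07, and none was called. The oxidase subunit gene mt.co1 held 51506, 53221 and 36791 CPM in AMD3100 and 45309, 64431 and 103500 in DMSO, so that the groups overlapped and DMSO replicate 3 stood highest. The complex I gene mt.nd6, which is transcribed from the light strand, held 5.39, 6.36 and 4.50 CPM in AMD3100 and 19.6, 8.79 and 22.9 in DMSO (-1.67, SE 0.415, adjusted p = 0.463). The complex I gene mt.nd5 held 406, 310 and 393 CPM in AMD3100 and 730, 481 and 587 in DMSO (-0.70, SE 0.278, adjusted p = 0.959).

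Nuclear genes of the same complexes leaned the other way by a small amount. Of 87 tested genes of oxidative phosphorylation 72 were positive, against 52.9% of all tested entries, and 14 were higher and 1 lower without overlap, against 6.91% and 6.02% of all tested entries. None was called or passed an unadjusted p under 0.05, and the median was 0.14. The complex I gene ndufb3 held 171, 177 and 219 CPM in AMD3100 and 143, 158 and 132 in DMSO (0.39, SE 0.223, adjusted p = 0.991). The mitochondrial transcription factor gene tfam averaged 22.2 ± 6.49 CPM in AMD3100 and 13.8 ± 2.72 in DMSO (SD, n = 3 each), with a log2 fold change of 0.67 and overlapping groups. The share of all counts taken by the oxidative phosphorylation list was higher in AMD3100 (1.26 ± 0.0453% in AMD3100 and 1.03 ± 0.0863% in DMSO). Of the counts without mitochondrial entries its share overlapped (1.57 ± 0.0725% in AMD3100 and 1.5 ± 0.11% in DMSO). In injured larvae, where the mitochondrial shares of the groups overlapped, the median of the list was 0.22. Other lists leaned too, with 25 of 30 tested genes positive for glycolysis and hypoxia and 58 of 84 for cytosolic ribosomal proteins. For heat shock and the unfolded protein response 9 of 32 were positive. Why the oxidative phosphorylation list leaned upwards was not tested.

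Over all lists the denominator mattered likewise. Of the 41 lists, 15 took a higher share of all counts in AMD3100 without overlap and 1 a lower one. Of the counts without mitochondrial entries 2 of 39 were higher without overlap, the chemokine and the cartilage lists, and 6 were lower. Among all tested entries 6.91% were higher and 6.02% lower without overlap. In the chemokine list the largest part of the counts was that of the leukotriene receptor gene ltb4r. It held 242 ± 15.9 CPM in AMD3100 and 192 ± 21.4 in DMSO (SD, n = 3 each), while the genes of Cxcr4 and Cxcl12 held few counts. The 6 lower lists were G protein and PI3 kinase signalling, the interferon response, translation factors, proteasome subunits, heat shock and unfolded protein response, and lymphoid genes. Their median log2 fold changes were -0.02, 0.26, 0.03, 0.04, -0.29 and 0.22 in this order. A summed share follows its most abundant members, so a lower share did not mean that most members were lower. In the interferon list stat1a held 146 ± 5.33 CPM in AMD3100 and 214 ± 33.9 in DMSO (SD, n = 3 each). The medians of 26 of the 28 lists of cell functions lay between -0.3 and 0.3. The other 2 were mitochondrial ribosomal and transfer RNA, at -0.87 over 6 tested entries, and integrins and selectins, at -0.42.

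Genes that fold proteins or answer misfolding in the endoplasmic reticulum lay below the median of all entries. Of 32 tested genes of heat shock and the unfolded protein response 9 were positive, with a median of -0.29, and none was called. They took 1.44 ± 0.104% of non-mitochondrial counts in AMD3100 and 2.00 ± 0.349% in DMSO (SD, n = 3 each). The stress transcription factor gene xbp1 held 241, 512 and 430 CPM in AMD3100 and 665, 703 and 645 in DMSO (-0.77, SE 0.291, adjusted p = 0.959). The folding enzyme gene pdia3 held 50.6, 84.6 and 140 CPM in AMD3100 and 240, 294 and 117 in DMSO, where DMSO replicate 3 lay among the AMD3100 libraries (-1.24, SE 0.513, adjusted p = 0.959). The stress-induced gene atf3 belonged to the immediate early and AP-1 list, not to this one. It held 407, 617 and 713 CPM in AMD3100 and 1573, 844 and 803 in DMSO (-0.89, SE 0.363, adjusted p = 0.959). The immediate early list had a median of -0.05 over 23 tested genes.

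Adhesion and metabolic genes gave no call with the filter on low counts. The 14 tested integrin and selectin genes had a median of -0.42, with 5 positive. Besides itgam, the integrin activator gene fermt3a averaged 3.67 ± 1.77 CPM in AMD3100 and 9.93 ± 7.25 in DMSO (SD, n = 3 each), while the selectin ligand gene selplg averaged 32.7 ± 10.8 in AMD3100 and 16.8 ± 11.9 in DMSO. Of 30 tested genes of glycolysis and hypoxia 25 were positive, with a median of 0.19. The aldolase gene aldoab, which muscle also expresses, held 212, 209 and 292 CPM in AMD3100 and 65.8, 167 and 161 in DMSO (0.85, SE 0.383, adjusted p = 0.959). The 45 proteasome genes held members on both sides, psma6b at 35.5 ± 2.45 CPM in AMD3100 and 18.3 ± 4.2 in DMSO and psmd1 at 152 ± 32.6 in AMD3100 and 354 ± 91.7 in DMSO, with no call. Inflammatory genes had a median of 0.09 over 30 tested, and interferon response genes 0.26 over 10.

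**Figure D5:**
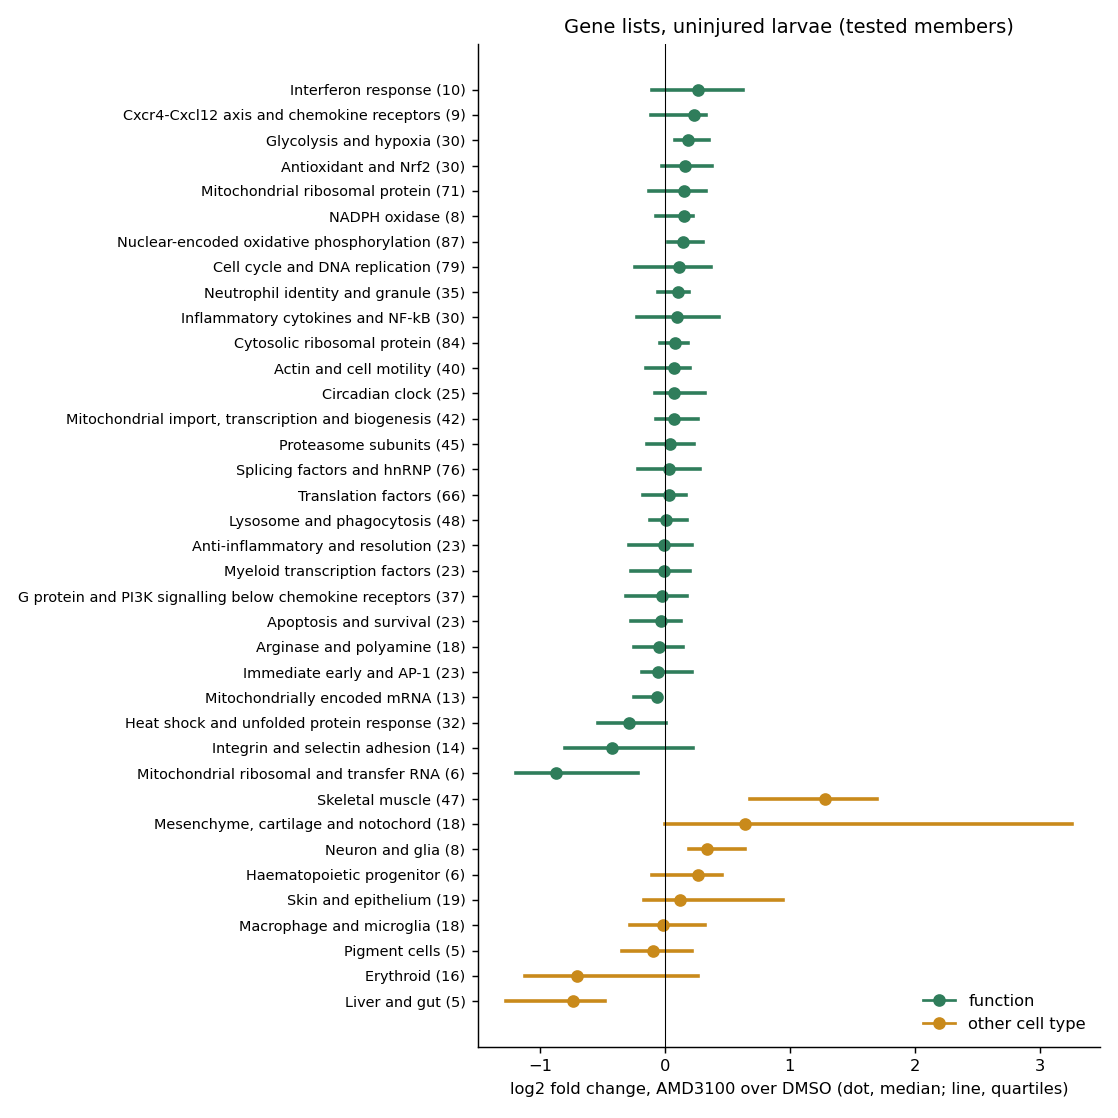
Median (dot) and quartiles (line) of the log2 fold change of AMD3100 over DMSO in uninjured larvae for the 37 lists with at least 5 tested members, whose number is in parentheses. Skeletal muscle, with a median of 1.28, and mesenchyme, cartilage and notochord, with 0.65, lie to the right, mitochondrial ribosomal and transfer RNA, with -0.87, liver and gut, with -0.74, and erythroid, with -0.70, lie to the left, and 26 of 28 function lists lie between -0.3 and 0.3.

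In injured larvae AMD3100 gave 0 calls of 8453 (0%; smallest adjusted p 0.615), with 466 entries (5.51%) at an unadjusted p under 0.05. The difference between the effects in injured and uninjured larvae gave 0 calls (0%) by the edgeR interaction test, with 265 entries (3.13%) at an unadjusted p under 0.05, and DESeq2 also gave 0. The interaction count was 68 without a filter on low counts and 2 without injured AMD3100 replicate 3. For col9a1b the injured libraries held 4.21, 8.62 and 9.99 CPM in AMD3100 and 1.66, 1.5 and 3.2 in DMSO, a log2 fold change of 1.95 (adjusted p = 0.901). The groups did not overlap, but the value of 4.21 rests on few counts, as AMD3100 replicate 1 held 655451 in all. The injured effect was smaller by 2.41 on the log2 scale (SE 0.819), which did not pass the threshold (adjusted p = 1.00). For col2a1a the log2 fold change in injured larvae was 1.62 (adjusted p = 0.901), and the groups overlapped. The injured libraries held 0, 16.5 and 21.1 CPM of col2a1a in AMD3100 and 7.30, 2.92 and 4.65 in DMSO.

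The interaction was nearest to the threshold in genes with few counts. For wasla, which encodes an activator of actin branching, the uninjured libraries held 26.0, 11.6 and 3.25 CPM in AMD3100 and 1.63, 0 and 0 in DMSO, and the injured libraries at most 0.144 in AMD3100 and 1.28 in DMSO. The 216 counts in uninjured AMD3100 and 3 in uninjured DMSO give a ratio of 38.6 per count sequenced, with an exact counting interval of 13 to 188. The protease gene c6ast4 held 0, 0.184 and 0.500 CPM in uninjured AMD3100 and 14.7, 2.93 and 9.63 in uninjured DMSO, and overlapping values in injured larvae. The other 3 of the 5 smallest p were rtn2b, SCARF2 and evi5a, and the adjusted p of all 5 was 1.00.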

How the data were processed

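RNA of sorted GFP-positive cells was sequenced by CEL-seq, adapted by the submitters, which starts from the poly(A) end and counts transcript ends, per the labels. The deposited table holds raw counts of reads per gene, without normalization. BWA, GRCz11 and DESeq2 1.38 appear in the submitters' processing notes, with no role stated. The sources used here do not say whether molecular identifiers were collapsed or whether counting used strand. Counting intervals take each count as independent, which is not known here, and leave out the spread between libraries. The labels call the libraries biological replicates without naming clutches, and p-values measure the spread between them. Of 31351 entries, 88 spike-ins were left out. A total of 5877 entries join overlapping genes.

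Low entries were removed with filterByExpr (groups as the design, minimum count 10, minimum total 15; edgeR 4.0.16, R 4.3.3). The rest were scaled by TMM factors, and 1 coefficient per group was fitted by quasi-likelihood over all 12 libraries (biological coefficient of variation 0.380). An entry was called at a Benjamini-Hochberg adjusted p under 0.05. SE and intervals follow from the F statistic. Unmodelled shares were compared by exact permutation (scipy 1.17.1). The 41 lists hold 1628 genes found in the table and were described by counts and medians. Named genes were the 8 smallest p per direction with at least 20 CPM in the higher group, up to 4 members per list, preset receptor and neutrophil genes, and the 5 smallest interaction p, of which the text names a part. The members, lists and rule were chosen with earlier results of these data known. Alternatives used DESeq2 1.42.0 and limma 3.58.1. The pipeline was tested on simulated counts.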

Additional observations from a re-analysis of the deposited data

How the results depend on the processing

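The count of entries changed by AMD3100 in uninjured larvae was 1 with RLE or upper-quartile factors, a filter of 10 CPM in 3 libraries, an adjusted p under 0.1, and without mitochondrial and hemoglobin or joint entries. It was 19 with DESeq2, 145 without a filter, 0 with limma-voom and 0 with the 6 libraries alone. Of the 145, 132 were among the entries tested with the filter and 19 had counts in at most 3 of the 6 libraries; the cause was not tested. With one library left out it ran between 0 and 2. It was 0 without uninjured AMD3100 replicates 1 or 3, any uninjured DMSO replicate, injured AMD3100 replicates 2 or 3, or injured DMSO replicates 1 or 2. The adjusted p of col9a1b ran between 1.87e-08 and 0.543 over all settings. The interaction count was 68 without a filter, 0 to 2 with one library left out and 0 otherwise.

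With the replicate number as a block the count was 1, and 0 in the 6 libraries alone. Same-numbered libraries did not deviate together (correlations -0.018, 0.057 and -0.068). With 3 libraries per group this cannot show whether the numbers mark a shared clutch or day. The block turned csf3r to -0.10, and to -0.14 in the 6 libraries alone. Of 2350 values of named genes under alternatives 18 changed sign, and the other 16 did so with one library left out. The ranges with one library left out were -0.15 to 0.20 for mpx, -0.083 to 0.32 for lyz, -0.22 to 0.36 for mmp9, -0.030 to 0.27 for il1b, -0.030 to 0.28 for rac2, -0.33 to 0.46 for csf3r, -0.10 to 0.62 for cxcr3.3, -0.20 to 0.30 for the coagulation factor gene f13a1b and -0.19 to 1.55 for the neuronal gene elavl3.

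The difference in mitochondrial share was -3.24 points without ribosomal RNA, -11.7 with spike-ins in the total, and -12.6 to -10.9 with one library left out. Of 37 list medians 19 changed sign or reached 0 in some setting. Ranges were 0.76 to 2.24 for muscle, 0.42 to 1.44 for cartilage, -0.37 to -0.15 for folding, 0.093 to 0.21 for oxidative phosphorylation, -0.016 to 0.33 for chemokine, -0.061 to 0.14 for neutrophil, -1.33 to 0.12 for erythroid, -0.64 to -0.015 for integrin, 0.022 to 1.41 for interferon and -1.04 to -0.055 for mitochondrial ribosomal and transfer RNA genes. Depth limits what can be seen below 20 CPM.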
